A study of Mus musculus with 25 samples.

Results

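Myeloid cells recognise microbial sugars and lipids with C-type lectin receptors, and the mRNA of 7 of them was followed here across 9 conditions of mouse macrophages: Clec4n (Dectin-2), Clec4d (MCL), Clec4e (Mincle), Clec5a (MDL-1), Clec7a (Dectin-1), Clec4a2 (DCIR) and Clec12a (MICL). The members were chosen by gene symbol, and all 7 were found among the 24411 symbols counted in each of the 25 RNA-seq samples. Clec4e mRNA rose at every time point of IFN-γ-primed LPS, to a level 488-fold that of control macrophages at 12 h. Clec5a rose at every time point too, and Clec12a was higher throughout by less than the size cutoff. Clec7a mRNA lay below control from 4 h onwards and passed the size cutoff at 12 and 24 h. With IL-4 and with IL-13, where the size cutoff was lower, Clec7a rose, and Clec4n, Clec4d and Clec12a fell.

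Bone marrow-derived macrophages (BMDMs) came from C57BL/6 mice, and all 21 BMDM samples had received M-CSF, a macrophage growth factor, at 25 ng/ml over 4 days. They form 7 groups of 3 samples, namely control cells cultured for 4 h, cells given 100 U/ml IFN-γ and 100 ng/ml LPS for 1, 4, 12 or 24 h (called IFN-LPS here), and cells given 10 ng/ml IL-4 or 10 ng/ml IL-13 for 12 h. The study describes IFN-γ as priming ahead of LPS but gives no length of priming, so the time with IFN-γ may be longer than these times. LPS is a bacterial cell wall lipid that drives classical (M1) activation, and IL-4 and IL-13 drive alternative (M2) activation. RAW264.7, a macrophage line from a virus-induced tumour of Balb/c mice, gave 2 control samples and 2 samples given 100 ng/ml LPS for 4 h, with no IFN-γ in any RAW264.7 culture. All comparisons of treated with control BMDMs share the same 3 control samples, whose 4 h of culture matches only the 4 h time point. The study's methods call the BMDM replicates biological and their RNA samples independent. As neither they nor the labels name separate animals or cultures, the p-values measure the spread between these samples.

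Most of these receptors turn ligand binding into signalling through a tyrosine motif called the ITAM, which recruits the kinase Syk and then the adaptor complex of Card9, Bcl10 and Malt1. Dectin-2, MCL and Mincle borrow the ITAM of the Fc receptor γ chain (gene Fcer1g), MDL-1 borrows that of DAP12 (gene Tyrobp) or pairs with DAP10 (gene Hcst), and Dectin-1 carries a partial ITAM of its own. DCIR and MICL instead carry an inhibitory motif, the ITIM, which recruits phosphatases such as SHP-1 (gene Ptpn6). In macrophages the activating receptors are known for sensing fungal β-glucan (Dectin-1), fungal mannans (Dectin-2) and the mycobacterial cord factor (MCL and Mincle).

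All values are counts on the sense strand, scaled to library size (CPM) after the ribosomal precursor Rn45s was left out and the libraries were scaled by TMM, a method that matches the bulk of genes between libraries. Sense counts without Rn45s ran from 1502618 to 2532496 per sample, so 3 counts, taken as the floor of detection, corresponded to 1.18 to 1.997 CPM before TMM. With TMM the floor in CPM moves. In the second 4 h IFN-LPS sample, for example, the 3 counts of Clec4a2 were 2.33 CPM with TMM and 1.67 without. Genes were tested with edgeR's quasi-likelihood test over 10612 genes with Benjamini-Hochberg adjustment, and FDR below is that adjusted p. A gene was called where its FDR did not exceed 0.01 and its log2-fold change reached 1.5 up or down (0.7 for IL-4 and IL-13 against control or each other, 2 for comparisons with RAW264.7). Values after ± are standard deviations for levels (n = 3, or 2 in RAW264.7) and standard errors for log2-fold changes. All 10 macrophage markers checked were found in BMDMs, summing to at least 19347 CPM, and 9 of 10 in RAW264.7, where Mertk had no count. Markers of neutrophils and their precursors (11 genes, Retnlg at 0 in every sample) summed to 13.3 to 52.5 CPM in BMDMs and 0.362 to 2.43 in RAW264.7. Markers of dendritic cells (8 genes) summed to at most 1.09 CPM in control BMDMs and to 14.4 to 28.2 at 12 h of IFN-LPS, where Ccr7 made up 12.1 to 22.9. Markers of mast cells and basophils summed to at most 4.71 CPM and of lymphocytes to at most 3.34, and Fcer1a, Ms4a2, Cd3d, Cd3e, Cd3g and Ms4a1 had no count in any sample. The part of other cell types in the results was not tested. In bulk RNA, fewer cells carrying a transcript cannot be told apart from less of it per cell. The antisense share of all Rn45s counts, on both strands, was also lower in libraries of the IL-4, IL-13 and 24 h groups (0.00603% to 0.0214%). In those of control, 1, 4 and 12 h it was 0.0386% to 0.122%, a difference between libraries that cannot be told apart from these treatments.

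All 7 genes lie on chromosome 6 (GRCm38/mm10, GENCODE M21). Clec4a2 (chr6:123106428-123143999, plus strand), Clec4n (chr6:123229843-123247021, plus), Clec4d (chr6:123262111-123275265, plus) and Clec4e (chr6:123281789-123289870, minus) form a cluster of 183 kb, in which Clec4d ends 6.52 kb from the end of Clec4e. Clec12a (chr6:129342691-129365303, plus) and Clec7a (chr6:129461591-129472779, minus) lie 96.3 kb apart, and Clec5a (chr6:40574894-40585821, minus) lies alone. GENCODE marks mouse Clec7a as a polymorphic pseudogene. Of the 100-base windows of each gene's transcripts, none was shared with another gene except for Clec4a2, where 2.14% were also in its neighbour Clec4a4.

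RefSeq promoter windows (GRCm38.p6, 250 bases before to 50 after the start) were found for 6 of the 7, all but Clec4n. The 250 bases before the start are shown for Clec4e and Clec5a, which rose with IFN-LPS, and Clec7a, which rose with IL-4 and IL-13 (5′ to 3′ on the gene's own minus strand, at chr6:123289872-123290121, chr6:40585806-40586055 and chr6:129472780-129473029). Capitals mark matches to the motifs searched and, in Clec5a and Clec7a, sequences that the study listed as binding motifs.
Clec4e: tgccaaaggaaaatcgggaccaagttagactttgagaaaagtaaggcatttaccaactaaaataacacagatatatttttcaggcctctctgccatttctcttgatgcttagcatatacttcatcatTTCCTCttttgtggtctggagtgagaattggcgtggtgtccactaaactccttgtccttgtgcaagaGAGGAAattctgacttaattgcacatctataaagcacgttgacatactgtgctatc
Clec5a: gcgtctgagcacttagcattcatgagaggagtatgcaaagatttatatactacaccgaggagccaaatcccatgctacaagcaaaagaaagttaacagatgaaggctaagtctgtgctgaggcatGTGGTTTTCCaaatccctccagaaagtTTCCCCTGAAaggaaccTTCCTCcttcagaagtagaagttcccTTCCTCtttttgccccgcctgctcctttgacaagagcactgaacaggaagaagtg
Clec7a: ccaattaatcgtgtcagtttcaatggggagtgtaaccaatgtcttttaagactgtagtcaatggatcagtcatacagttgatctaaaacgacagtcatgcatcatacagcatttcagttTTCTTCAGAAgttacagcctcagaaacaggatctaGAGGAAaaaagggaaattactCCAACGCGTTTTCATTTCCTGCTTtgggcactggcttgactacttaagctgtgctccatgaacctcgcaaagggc
In Clec4e the capitals are the core recognised by PU.1 (GAGGAA), once on each strand, and Clec5a holds it on the other strand at both stretches TTCCTC. Clec7a holds it once. Clec5a and Clec7a each hold 1 match to the STAT6 type spacing, TTC and GAA with 4 bases between, which begins 98 and 131 bases before the start. The listed sequences are GTGGTTTTCC in Clec5a and, in Clec7a, CCAACGCGTT and ACGCGTTTTCATTTCCTGCTT, which overlap each other. Both sequences listed for Clec4e lie outside its window. Over both strands of all 32851 promoter windows, GAGGAA was in 28.3% and the STAT6 type in 6.95%, against 5 and 2 of the 6 receptor windows. The interferon response core, GAAA and GAAA with 2 bases between (3.44% of windows), was in Clec4d alone. It begins there at the start, on the other strand, with no part in the 250 bases before. The AP-1 motif TGANTCA (7.81%) was in Clec4a2 and Clec12a, and the NF-κB type, GGG and CC with 5 bases between (50.8%), in none of the 6. These matches are descriptions of letters, not of bound sites.

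**Figure D1:**
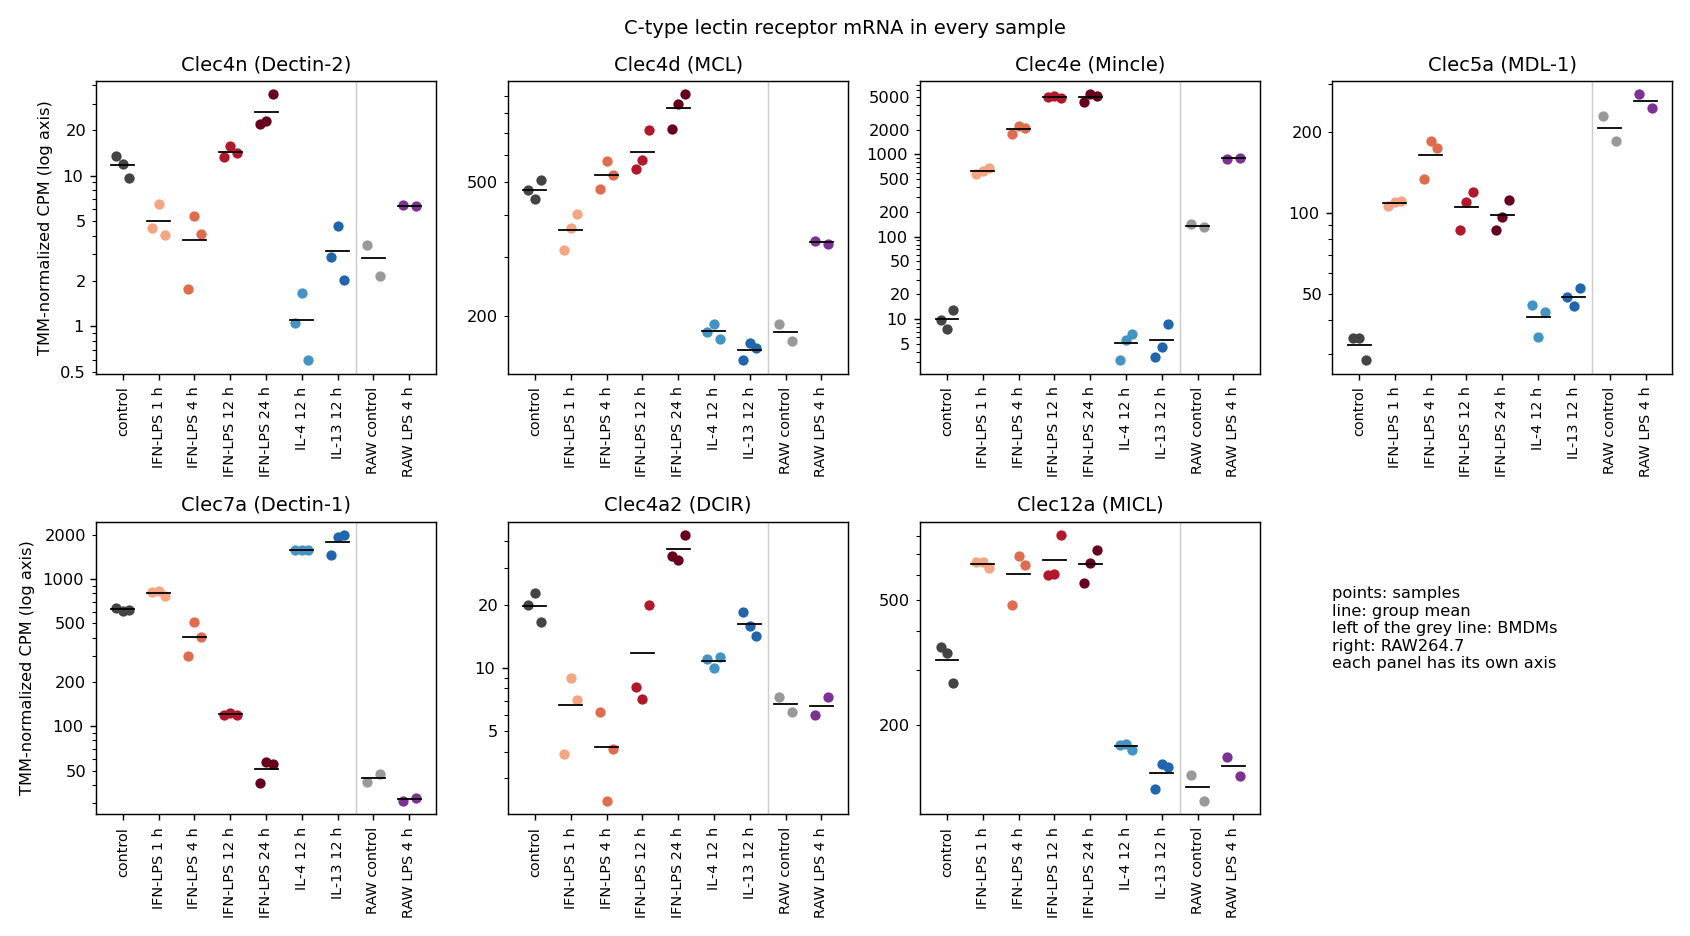
Level of each receptor mRNA in every sample (points; lines are group means), in TMM-normalized CPM on log axes that differ between panels, with the 7 BMDM groups left and the 2 RAW264.7 groups right of the grey line. Clec4e spans from 3.14 to 5364 CPM between samples, and Clec7a is highest with IL-4 and IL-13 and lowest in LPS-treated RAW264.7.

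In resting BMDMs the receptor transcripts were very unequal. Genes are set side by side per kilobase of exon, with all exons of GENCODE M21 merged, a length that may differ from the one counted. The control level was 297 ± 19.6 CPM/kb for Clec4d, 235 ± 6.27 for Clec7a and 58.2 ± 7.90 for Clec12a. Clec5a (8.41 ± 0.892 CPM/kb), Clec4n (8.21 ± 1.35), Clec4a2 (6.75 ± 1.06) and Clec4e (2.02 ± 0.531) were far lower, and the first 3 of these overlapped between samples. Clec4d and Clec7a thus held 48.2% and 38.2% of the summed CPM/kb of the 7 receptors. Their order rests on the exon length, as the control means in plain CPM were 475 for Clec4d and 620 for Clec7a.

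The time course asked how the macrophage transcriptome follows IFN-γ-primed LPS. At 1 h, 3 of the 7 receptors were called (2 up, 1 down), beside 7.04% of all genes (4.83% up, 2.21% down). At 4 h 4 were called (2 up, 2 down), beside 21.9% of all genes (10.9% up, 11% down). At 12 h 3 were called (2 up, 1 down), beside 17% (8.42% up, 8.59% down), and at 24 h 3 (2 up, 1 down), beside 14.7% (7.43% up, 7.29% down). Clec4e and Clec5a were the 2 upregulated at each of the 4 times. The median log2-fold change of the 7 receptors was 0.37, 0.15, 0.37 and 1.01 at 1, 4, 12 and 24 h, beside -0.02, -0.09, -0.02 and -0.01 for all genes tested. Without TMM scaling, the median of all genes moved by -0.22, -0.58, -0.35 and -0.23 at these times, so small changes depend on the scaling and are given relative to TMM.

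Clec4e encodes Mincle, which binds the cord factor of mycobacteria and the nuclear protein SAP130 of dying cells. Its level was 9.66, 7.60 and 12.8 CPM in the 3 control samples, 575, 621 and 688 at 1 h, 1748, 2219 and 2075 at 4 h, 4942, 5083 and 4786 at 12 h and 4279.9, 5364 and 5101 at 24 h. No treated sample came near the controls, and only the 12 and 24 h samples overlapped each other. The log2-fold change against control was 5.96 ± 0.15 at 1 h, 7.64 ± 0.15 at 4 h, then 8.93 ± 0.15 at 12 h and 8.93 ± 0.15 at 24 h (FDR between 1.8e-56 and 2.6e-45). From step to step, it rose between 1 and 4 h (1.68 ± 0.09, FDR = 2.2e-25), and between 4 and 12 h it was higher by 1.29 ± 0.09 on the log2 scale (FDR = 4.9e-20), which is under the size cutoff of 1.5. Both steps lie near that cutoff and trade places without TMM (1.32 and 1.53). Between 12 and 24 h the difference was -0.01 ± 0.09 (95% interval -0.18 to 0.17).

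Clec4d encodes MCL, the partner with which Mincle forms a surface complex, and Clec4n encodes Dectin-2, the receptor of fungal mannans. The Clec4d level was 472, 445 and 507 CPM in control samples, 315, 365 and 401 at 1 h, 475, 579 and 524 at 4 h, 546, 583 and 716 at 12 h and 720.4, 854 and 912 at 24 h. It stood below control at 1 h and above it at 12 and 24 h without overlap, and at 4 h it overlapped the controls. The log2-fold changes were -0.40 ± 0.10 (FDR = 6.9e-04) at 1 h, 0.37 ± 0.10 (FDR = 5.8e-04) at 12 h and 0.80 ± 0.09 (FDR = 1.6e-11) at 24 h, all under the size cutoff, and the 12 h value was 0.017 without TMM (FDR = 0.882). At 4 h it was 0.15 ± 0.10 (FDR = 0.182), and -0.43 without TMM, so that its direction rests on the scaling. The ratio of Clec4e to Clec4d CPM went from 0.0210 ± 0.00413 in control samples to 1.75 ± 0.0691 at 1 h and 8.15 ± 1.28 at 12 h.

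Clec4n was low and dipped before it rose. Its level was 13.4, 11.9 and 9.63 CPM in control samples, 4.47, 6.43 and 4.05 at 1 h, 1.77, 5.43 and 4.10 at 4 h, 13.3, 15.6 and 14.1 at 12 h and 21.994, 22.9 and 34.5 at 24 h. All samples of 1 and 4 h lay below all controls, those of 24 h lay above, and those of 12 h overlapped. The 4 h samples held only 2, 7 and 5 counts, and Clec4n fell there by 1.58 ± 0.40 on the log2 scale (FDR = 4.2e-04). Without the first 4 h sample this was -1.28 and without the first control -1.47, both short of the cutoff. The log2-fold change was -1.24 ± 0.34 (FDR = 0.00217) at 1 h, 0.29 ± 0.27 (FDR = 0.373) at 12 h (-0.060 without TMM) and 1.19 ± 0.23 (FDR = 7.7e-06) at 24 h. Between 4 and 12 h Clec4n rose (1.88 ± 0.39, FDR = 3.9e-05).

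Clec5a encodes MDL-1, the DAP12-paired receptor known for binding flaviviruses. Its level was 34.4, 34.2 and 28.3 CPM in control samples, 106, 110.0 and 111 at 1 h, 134, 185 and 174 at 4 h, 86.1, 109.8 and 119 at 12 h and 86.5, 96.9 and 112 at 24 h. Every treated sample lay above every control, and the 4 h samples lay above those of the other 3 times. The log2-fold change was 1.75 ± 0.15 (FDR = 4.8e-17) at 1 h, 2.35 ± 0.14 (FDR = 4.4e-24) at 4 h, 1.70 ± 0.15 (FDR = 1.3e-16) at 12 h and 1.61 ± 0.15 (FDR = 6.7e-16) at 24 h. Without TMM, the 12 and 24 h values (1.34 and 1.38) were under the size cutoff.

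Clec7a encodes Dectin-1, the β-glucan receptor. Its level was 637, 604 and 619 CPM in control samples, 811, 827 and 770.2 at 1 h, 301, 509 and 406 at 4 h, 119.6, 123 and 119 at 12 h and 41.1, 57.2 and 55.1 at 24 h. The 1 h samples all lay above the controls, and those of each later time lay below both the controls and the time before. The log2-fold change was 0.37 ± 0.11 (FDR = 0.00712) at 1 h and -0.61 ± 0.12 (FDR = 1.8e-05) at 4 h, both under the size cutoff. The 1 h value was 0.15 without TMM (FDR = 0.247), and its FDR was over the cutoff with DESeq2 and with each of the 6 samples left out in turn. Clec7a then fell by 2.36 ± 0.13 (FDR = 9.5e-20) at 12 h and by 3.60 ± 0.14 (FDR = 8.3e-25) at 24 h on the log2 scale, to levels 5.14-fold and 12.1-fold under control. Of the steps, that from 4 to 12 h was called (-1.75 ± 0.13, FDR = 8.7e-15), and those from 1 to 4 h (-0.98 ± 0.12, FDR = 1.8e-09) and from 12 to 24 h (-1.23 ± 0.15, FDR = 2.2e-08) passed the FDR cutoff only. Clec4e CPM over Clec7a CPM was 0.0162 ± 0.00416 in control samples, 5.09 ± 0.724 at 4 h and 96.9 ± 6.43 at 24 h.

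The inhibitory receptors took different courses. Clec12a encodes MICL, which binds uric acid crystals. Its level was 355, 338 and 272 CPM in control samples, 664, 661 and 631 at 1 h, 481, 692 and 646 at 4 h, 602, 606 and 806 at 12 h and 568, 658 and 722 at 24 h. It was higher than control without overlap at all 4 times, and the 4 times overlapped each other. The log2-fold change was between 0.92 (4 h) and 1.06 (12 h), with FDR of at most 1.5e-08, under the size cutoff. Without TMM the 4 h value was 0.33 (FDR = 0.00557).

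Clec4a2 encodes DCIR, an ITIM receptor that restrains dendritic cells and macrophages. Its level was 19.9, 22.8 and 16.6 CPM in control samples, 3.91, 9.01 and 7.08 at 1 h, 6.20, 2.33 and 4.10 at 4 h, 8.09, 7.15 and 19.997 at 12 h and 34.2, 32.8 and 42.9 at 24 h. The 1 and 4 h samples lay below all controls and the 24 h samples above, while the third 12 h sample lay among the controls. Clec4a2 fell by 1.57 ± 0.29 (FDR = 8.4e-06) at 1 h and by 2.24 ± 0.36 (FDR = 1.9e-07) at 4 h. The log2-fold change was -0.73 ± 0.26 (FDR = 0.0141) at 12 h and 0.90 ± 0.20 (FDR = 1.0e-04) at 24 h. The 12 h value was -1.37 without the third 12 h sample (FDR = 8.5e-05), and -1.37 to -0.50 over all samples left out. It rose from 4 to 12 h (1.51 ± 0.41, FDR = 0.00177) and from 12 to 24 h (1.63 ± 0.23, FDR = 2.9e-08). The 1 h call was lost without the first 1 h sample (-1.31) or the second control (-1.46). That from 4 to 12 h was lost without the third 12 h sample (0.88), the second 4 h sample (1.19) or the third 4 h sample (1.4996), and with DESeq2 (1.49). That from 12 to 24 h was lost without the first (1.41) or second (1.39) 12 h sample or the third 24 h sample (1.49).

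Over the steps of the time course, 1 receptor was called from 1 to 4 h (Clec4e up, beside 13.4% of all genes and 6.78% up), 3 from 4 to 12 h (Clec4n and Clec4a2 up, Clec7a down, beside 9.36%, of which 4.93% up and 4.43% down) and 1 from 12 to 24 h (Clec4a2 up, beside 1.25% and 0.358% up).

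**Figure D2:**
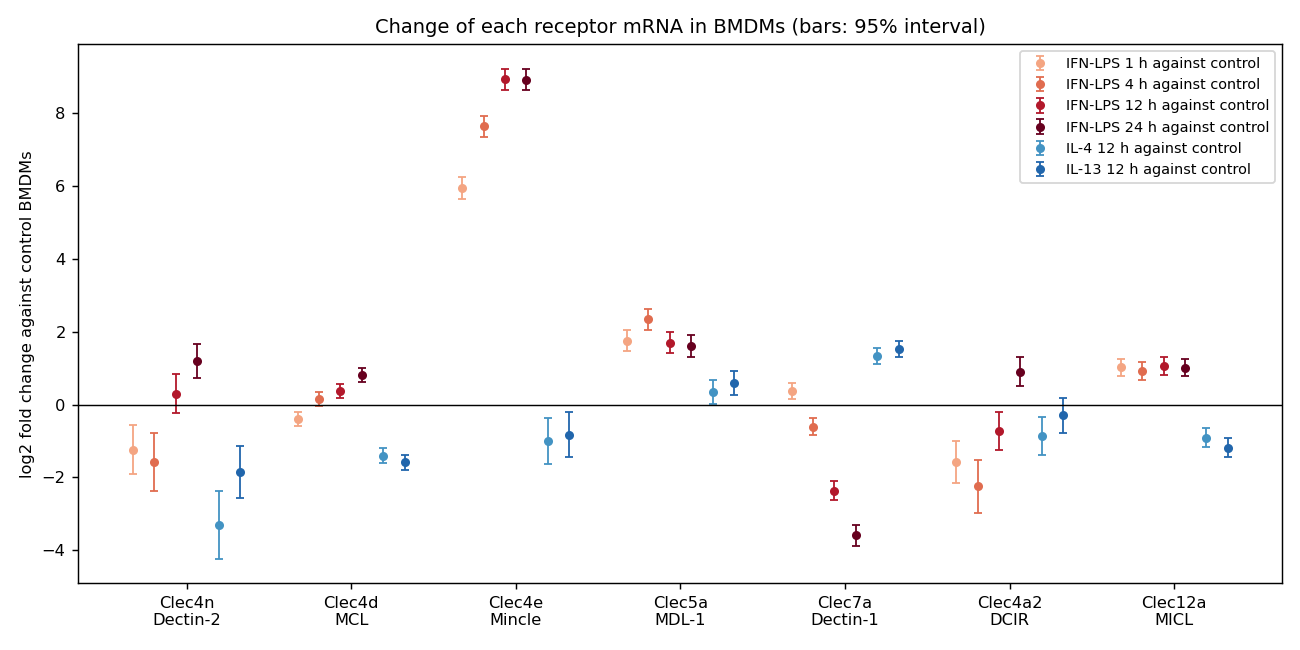
Log2-fold change of each receptor mRNA against control BMDMs (vertical axis; bars are 95% intervals) at 4 times of IFN-LPS and after 12 h of IL-4 or IL-13. Clec4e reaches 8.93 with IFN-LPS, and Clec7a and Clec4d lie on opposite sides of 0 in the IFN-LPS 24 h and the IL-4 and IL-13 groups.

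The IL-4 and IL-13 comparisons asked how alternative activation differs from rest. With each cytokine 4 of the 7 receptors were called, the same 4 genes in the same direction, with Clec7a up and Clec4n, Clec4d and Clec12a down. This stood beside 3.37% of all genes called with IL-4 (2.05% up, 1.32% down) and 4.75% with IL-13 (2.8% up, 1.95% down). The median log2-fold change of the receptors was -0.91 with IL-4 and -0.83 with IL-13, beside 0.00 and -0.01 for all genes. Both comparisons share the control samples, and the treated cells were cultured for 12 h and the controls for 4 h, which cannot be told apart from the cytokines, nor can the lower antisense Rn45s of these libraries given above.

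Clec7a was at 1569, 1561 and 1572 CPM with IL-4 and 1444, 1915 and 1984 with IL-13, above all controls and above every other sample of the series. Its log2-fold change was 1.34 ± 0.11 (FDR = 2.5e-12) with IL-4 and 1.52 ± 0.11 (FDR = 3.5e-14) with IL-13. Clec4d was at 179, 189 and 171 CPM with IL-4 and 147, 166 and 160.5 with IL-13, below all controls, and fell by 1.40 ± 0.10 (FDR = 1.5e-18) and 1.59 ± 0.10 (FDR = 3.3e-21).

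Clec12a was at 173, 174 and 167 CPM with IL-4 and 125, 149.9 and 147 with IL-13, also below all controls, and fell by 0.91 ± 0.13 (FDR = 9.1e-07) and 1.19 ± 0.13 (FDR = 2.0e-09). Clec4n was at or near the floor, with 2, 3 and 1 counts in the IL-4 samples and 5, 9 and 4 in the IL-13 samples against 25, 22 and 18 in controls. From the summed counts, its control level was 10.5 times that with IL-4 (exact 95% interval 4.56 to 29.6) and 3.67 times that with IL-13 (2.15 to 6.58), intervals that cover counting error only. The fitted log2-fold changes were -3.31 ± 0.46 (FDR = 6.5e-08) and -1.86 ± 0.36 (FDR = 7.2e-05).

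The other 3 receptors were not called with either cytokine, and Clec4e and Clec4a2 overlapped the controls with IL-13. Clec4e was at 3.14, 5.56 and 6.56 CPM with IL-4 and 3.45, 4.6044 and 8.61 with IL-13, with log2-fold changes of -0.99 ± 0.32 (FDR = 0.0307) and -0.83 ± 0.31 (FDR = 0.0615). Clec5a was at 45.6, 34.5 and 42.9 CPM with IL-4 and 48.9, 45.021 and 52.6 with IL-13, with log2-fold changes of 0.34 ± 0.17 (FDR = 0.213) and 0.60 ± 0.16 (FDR = 0.00648), so that with IL-13 it passed the FDR cutoff but not the size cutoff. Clec4a2 was at 11.0, 10.0 and 11.3 CPM with IL-4 and 18.4, 15.9 and 14.2 with IL-13, with log2-fold changes of -0.87 ± 0.26 (FDR = 0.0188) and -0.30 ± 0.24 (FDR = 0.484). In a fit of only the IL-4 and control samples, Clec4a2 was called with IL-4 (-0.88, FDR = 0.00333).

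IL-13 and IL-4 act through a shared receptor chain, and set directly against each other they gave no call among the 7 receptors by edgeR, beside 0.0471% of all genes. DESeq2 called 0 as well. At an unadjusted p under 0.05, 2 receptors were higher with IL-13 (Clec4n and Clec4a2) and 1 was lower (Clec12a). The intervals of the difference are wide for the low genes, 0.22 to 2.70 for Clec4n, 0.03 to 1.12 for Clec4a2 and -0.55 to 0.89 for Clec4e, and narrower for Clec5a (-0.06 to 0.57), Clec7a (-0.03 to 0.40), Clec4d (-0.40 to 0.03) and Clec12a (-0.55 to -0.01).

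The M1 and M2 cells of the same 12 h were then set against each other, where leaving out TMM moved the median of all genes by -0.34 (IL-4) and -0.37 (IL-13). Against IL-4, 5 of the 7 were called (4 up, 1 down), beside 16% of all genes (8.58% up, 7.45% down), and against IL-13 the same 5, beside 16% (8.59% up, 7.44% down). Clec4e was higher by 9.92 ± 0.16 on the log2 scale than with IL-4 and by 9.76 ± 0.16 than with IL-13. Clec4n (3.61 ± 0.45 and 2.15 ± 0.35), Clec4d (1.78 ± 0.10 and 1.96 ± 0.10) and Clec12a (1.97 ± 0.12 and 2.25 ± 0.13) were also higher, and Clec7a was lower (-3.70 ± 0.13 and -3.88 ± 0.13), with FDR of at most 3.1e-07 for these 5. From its 6 counts with IL-4, the Clec4n ratio was 12.8 (exact 95% interval 5.61 to 36.1). Clec4d against IL-4 was under the size cutoff without TMM (1.43). Clec5a was higher by 1.35 ± 0.14 (FDR = 3.8e-13) and 1.10 ± 0.14 (FDR = 1.5e-10), which is under the cutoff, and Clec4a2 overlapped in both (0.14 ± 0.30, or -0.21 without TMM, and -0.44 ± 0.27).

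Per kilobase of exon, the composition of the receptor transcripts turned over between the activation states. The summed level of the 7 was 615 ± 18.1 CPM/kb in control BMDMs, 1588 ± 62.4 after 12 h of IFN-LPS, 754 ± 3.59 with IL-4 and 821 ± 119 with IL-13. Clec4e held 0.327 ± 0.0801% of the sum in control BMDMs, 15.6 ± 0.930% at 1 h, 38.9 ± 0.908% at 4 h, then 62.7 ± 3.76% at 12 h and 58.2 ± 1.62% at 24 h. Clec7a held 38.2 ± 0.462% in control BMDMs, 1.13 ± 0.0752% at 24 h, 78.8 ± 0.623% with IL-4 and 82.1 ± 1.81% with IL-13. The receptor with the largest share was Clec4d in control BMDMs and in both RAW264.7 groups, Clec7a at 1 h and with IL-4 and IL-13, and Clec4e at 4, 12 and 24 h. In plain CPM, the highest mean was instead that of Clec7a in control BMDMs (620). In RAW264.7 it was that of Clec5a at rest (207) and Clec4e with LPS (898), so these shares rest on the exon length. The inhibitory pair Clec4a2 and Clec12a together held 10.6 ± 1.53% in control BMDMs, 14.9 ± 0.828% at 1 h, 7.65 ± 0.403% at 24 h and 3.81 ± 0.383% with IL-13.

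**Figure D3:**
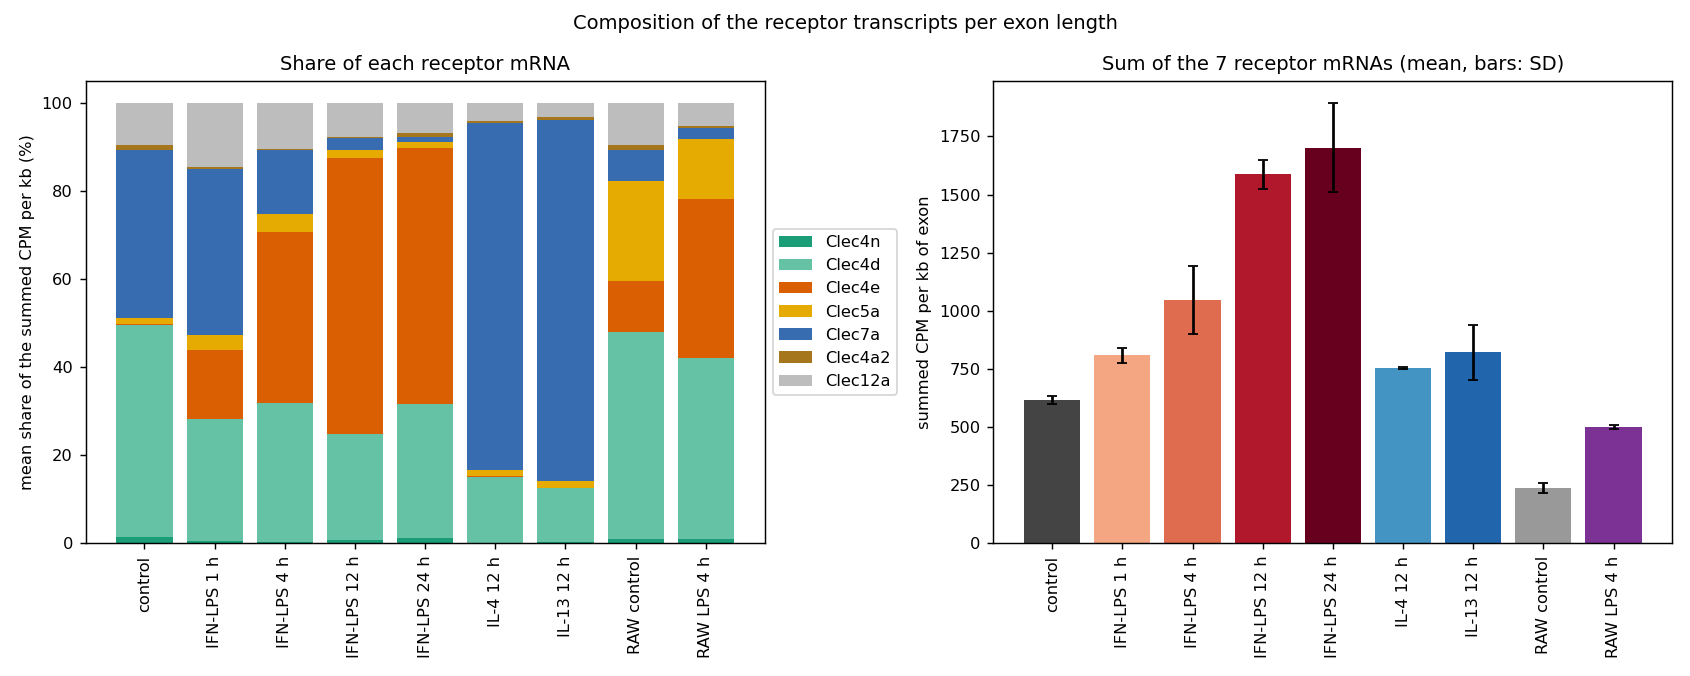
Left, mean share of each receptor in the summed CPM per kilobase of exon of the 7 in each condition; right, that sum (bars, mean; error bars, SD of 3 samples, or 2 in RAW264.7). Clec4e holds 62.7% at 12 h of IFN-LPS, Clec7a 82.1% with IL-13, and the sum is highest at 24 h.

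The adaptors and signalling genes of these receptors were described as a list of 25, all of which were tested. With IFN-LPS, 1 was called up and 0 down at 1 h, 4 up and 2 down at 4 h, 8 up and 2 down at 12 h and 7 up and 2 down at 24 h, beside 4.83%, 10.9%, 8.42% and 7.43% of all genes called up and 2.21%, 11%, 8.59% and 7.29% called down. At 1 h, 2 of the 25 were lower at an unadjusted p under 0.05 by edgeR, and DESeq2 called 0 down. The list's median log2-fold change was 0.23, 0.37, 0.43 and 0.35 at the 4 times. Fcer1g, the adaptor of Dectin-2, MCL and Mincle, went from 451 CPM in control samples to 1719 at 24 h and was called at 12 h (1.68 ± 0.09, FDR = 6.8e-27) and 24 h (1.93 ± 0.09, FDR = 3.4e-30). Tyrobp, the adaptor of MDL-1, was at 752 CPM in control samples and 618 at 24 h and was not called (-0.28 ± 0.09, FDR = 0.00524). Syk, the kinase that docks on the ITAM, was called at 12 h (1.85 ± 0.09, FDR = 3.2e-29) and 24 h (1.65 ± 0.09, FDR = 1.9e-26).

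Malt1, the protease of the Card9 complex, was the member of this list that was called at all 4 times, with 63.7 CPM in control samples and 884 at 4 h (3.79 ± 0.10, FDR = 3.8e-45). Its partners differed: Card9 was at 29.8 and 19.0 CPM (-0.65 ± 0.21, FDR = 0.00695) and Bcl10 at 8.06 and 16.6 CPM (1.03 ± 0.29, FDR = 0.00191), neither past the size cutoff. Src, of the kinase family that phosphorylates the ITAM, rose at 4 h, by 4.59 ± 0.12 (FDR = 5.1e-46). Inpp5d, the lipid phosphatase SHIP-1, fell at 4 h from 399.7 to 52.4 CPM (-2.93 ± 0.14, FDR = 1.8e-23) and was at 276 CPM at 12 h. Nfatc2, a transcription factor downstream of calcium, fell at 4 h (-2.59 ± 0.41, FDR = 1.0e-07), and the exchange factor Vav3 fell at 24 h (-2.74 ± 0.21, FDR = 2.1e-19).

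With IL-4 and with IL-13, 2 of the 25 were called up, the kinase Prkcd (0.92 ± 0.10, FDR = 7.8e-11 and 1.26 ± 0.10, FDR = 8.9e-17) and the ubiquitin ligase Cblb (1.07 ± 0.10, FDR = 4.1e-14 and 1.13 ± 0.10, FDR = 2.1e-15), beside 2.05% and 2.8% of all genes. No gene of the list was called down by edgeR or DESeq2 with either cytokine. At an unadjusted p under 0.05, 6 were lower with IL-4 and 8 with IL-13.

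**Figure D4:**
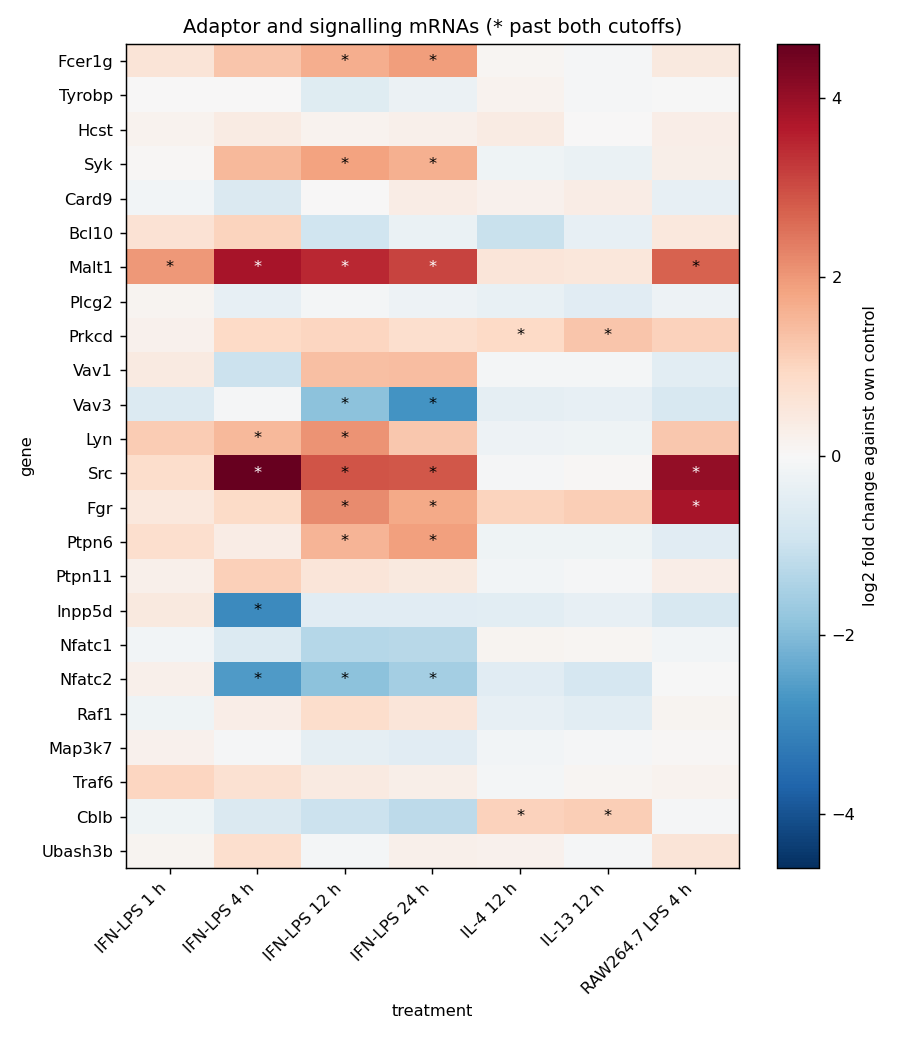
Log2-fold change of the adaptor and signalling genes (rows, with 1 of the 25 not shown) against the control of the same cell kind (colour) in 7 treatments (columns), with an asterisk where both cutoffs were passed. Malt1 is marked in all 4 IFN-LPS columns and in RAW264.7, and only Prkcd and Cblb are marked with IL-4 and IL-13.

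Of 53 other C-type lectin genes in the counts, 17 passed the filter on low counts, a filter that keeps genes high in any one group. With IFN-LPS, 3 of them were called up and 1 down at 1 h, 6 and 4 at 4 h, 8 and 4 at 12 h and 9 and 4 at 24 h, beside 4.83% up and 2.21% down, 10.9% and 11%, 8.42% and 8.59%, and 7.43% and 7.29% of all genes. Their median log2-fold change was 0.26, 0.28, 1.47 and 1.76, or 0.11, 0.28, 1.47 and 0.00 with the 2 or 3 genes that had no count in one of the groups set to the floor, beside -0.02, -0.09, -0.02 and -0.01 for all genes tested. Cd69, an early activation antigen, was under the floor in control samples (1 to 2 counts each) and at 1565 CPM at 4 h. Klrk1, the NKG2D receptor, had no count in any control sample and 7.19 CPM at 4 h. Clec4a1 and Clec4a3, relatives of Clec4a2 in the same part of chromosome 6, were at 10.6 and 11.7 CPM in control samples and at 228 (4.42 ± 0.24, FDR = 3.2e-15) and 69.4 (2.57 ± 0.19, FDR = 1.1e-19) at 24 h. Mrc1, the mannose receptor, fell at 24 h (-4.07 ± 0.19, FDR = 3.0e-31) and rose with IL-4 (2.46 ± 0.10, FDR = 5.2e-32) and IL-13 (2.82 ± 0.10, FDR = 1.0e-35), and Cd93 fell at 12 h (-3.18 ± 0.10, FDR = 6.3e-41). With IL-4, 4 of the 17 were called up and 1 down, beside 2.05% and 1.32% of all genes, and with IL-13 3 up and 2 down, beside 2.8% and 1.95%. Clec4a3 was among those up (1.92 ± 0.21, FDR = 1.8e-11 with IL-13).

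The RAW264.7 comparisons asked how the cell line relates to BMDMs. The line and the BMDMs differ in cell kind, mouse strain, medium and, at 4 h, in IFN-γ. M-CSF is named for the BMDM cultures only. These differences cannot be told apart. In resting RAW264.7, 4 of the 7 receptors differed from resting BMDMs past the cutoffs, beside 23% of all genes (9.67% higher, 13.3% lower). Leaving out TMM moved the median of all genes by 0.24 here, by 0.69 between the stimulated cells and by 0.44 for the difference in response. Clec4e, at 142 and 131 CPM, was higher by 3.75 ± 0.17 (FDR = 4.1e-30) on the log2 scale, and Clec5a, at 229 and 185 CPM, by 2.68 ± 0.14 (FDR = 1.3e-27). Clec7a, at 41.6 and 47.1 CPM, was lower (-3.80 ± 0.16, FDR = 1.5e-23). None of these samples overlapped the BMDM controls. Clec4n, with 10 and 6 counts in the 2 control samples, was lower by 2.02 ± 0.38 on the log2 scale (FDR = 2.7e-06) and sits at the cutoff, with -2.39 to -1.73 over the alternatives. It was lost, among others, without the first (-1.90) or second (-1.9990) BMDM control or the second RAW264.7 control (-1.73). Clec4d (-1.41 ± 0.11, FDR = 2.7e-18), Clec4a2 (-1.54 ± 0.29, FDR = 3.3e-06) and Clec12a (-1.35 ± 0.14, FDR = 6.6e-11) were lower with FDR under the cutoff but by less than 2. Of the 25 adaptor and signalling genes, 3 were called lower, Cblb (-4.13 ± 0.17, FDR = 1.7e-33), Src (-3.68 ± 0.30, FDR = 4.8e-18) and Syk (-2.21 ± 0.13, FDR = 4.0e-26), and 0 higher by edgeR or DESeq2 (3 at an unadjusted p under 0.05).

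After 4 h of LPS, 1 of the 7 receptors was called in RAW264.7, beside 3% of all genes (2.19% up). Clec4e went from 142 and 131 to 889.9 and 906 CPM and rose by 2.72 ± 0.12 (FDR = 1.2e-29) on the log2 scale, or 6.59-fold. Clec4d went from 189 and 169 to 335 and 327 CPM (0.89 ± 0.12, FDR = 8.4e-09), without overlap but under the size cutoff. Clec5a went to 276 and 246 CPM (0.33 ± 0.12, FDR = 0.0407) and Clec7a to 31.1 and 32.6 CPM (-0.48 ± 0.20, FDR = 0.0804), without overlap and with FDR over the cutoff. Clec12a, at 138 and 115 CPM in control and 158 and 137 in LPS samples, overlapped (0.22 ± 0.16, FDR = 0.328), as did Clec4a2, at 7.29 and 6.16 CPM in control and 5.97 and 7.28 in LPS samples (-0.02 ± 0.37, FDR = 1.00). Clec4n, at 3.47 and 2.17 CPM in control and 6.37 and 6.24 in LPS samples, did not overlap but missed the FDR cutoff (1.13 ± 0.44, FDR = 0.0447), and 1 of its 2 LPS samples had 5 counts on the other strand beside 16 and 18 on its own in the pair. Of the 25 adaptor and signalling genes, 4 were called up, among them Malt1 (2.71 ± 0.12, FDR = 1.3e-30), Src (4.03 ± 0.29, FDR = 1.5e-19) and Fgr (3.81 ± 0.25, FDR = 4.2e-17), and 0 down by edgeR or DESeq2 (5 at an unadjusted p under 0.05). Of the 17 other C-type lectins tested, 3 were called up and 0 down (4 down at an unadjusted p under 0.05, 0 by DESeq2).

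At 4 h, stimulated RAW264.7 differed from stimulated BMDMs in 2 of the 7 receptors, beside 28.6% of all genes (16.2% lower). Clec7a, at 31.1 and 32.6 CPM, was lower by 3.67 ± 0.17 on the log2 scale (FDR = 3.5e-22). Clec12a, at 158 and 137 CPM, was lower by 2.04 ± 0.14 (FDR = 4.8e-16), a call that sits at the cutoff and ranged from -2.19 to -1.35 over the alternatives, lost among others without the second BMDM sample (-1.95) or the second RAW264.7 sample (-1.94). Neither overlapped the BMDM samples. Clec4e was at -1.17 ± 0.11 and Clec4d at -0.67 ± 0.11 (0.023 without TMM), both under the size cutoff. The log2 differences were 0.66 ± 0.12 for Clec5a, 0.70 ± 0.46 for Clec4n and 0.68 ± 0.46 for Clec4a2.

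The response itself was then compared, as the RAW264.7 log2-fold change minus the BMDM one at 4 h, and 4 of the 7 receptors differed past the cutoffs, beside 8.26% of all genes (3.38% higher, 4.88% lower). The response of Clec4e was smaller in RAW264.7 (-4.92 ± 0.21, FDR = 1.3e-31), from a resting level that was higher there. That of Clec5a was smaller (-2.02 ± 0.19, FDR = 2.4e-14) and lies at the cutoff, with -2.16 to -1.58 over the alternatives. It was lost without the third BMDM control (-1.93), the second (-1.94) or the third (-1.98) 4 h BMDM sample, the first RAW264.7 control (-1.86) or the second RAW264.7 LPS sample (-1.93). With all samples it was lost with DESeq2 (-1.99), with Rn45s kept (-1.95), without TMM (-1.58) and with at least 10 counts in every sample (-1.88). Clec4n (2.72 ± 0.59, FDR = 1.3e-04) and Clec4a2 (2.22 ± 0.54, FDR = 6.5e-04) fell at 4 h in BMDMs (-1.58 and -2.24) against 1.13 and -0.02 in RAW264.7, at low counts in both. The Clec4a2 call was lost without the second 4 h BMDM sample (1.91) and without the second LPS sample of RAW264.7 (FDR = 0.0112). For Clec4d the difference was 0.74 ± 0.15 (FDR = 7.7e-05), for Clec12a -0.70 ± 0.20 (FDR = 0.00464) and for Clec7a 0.13 ± 0.24 (95% interval -0.35 to 0.61).

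**Figure D5:**
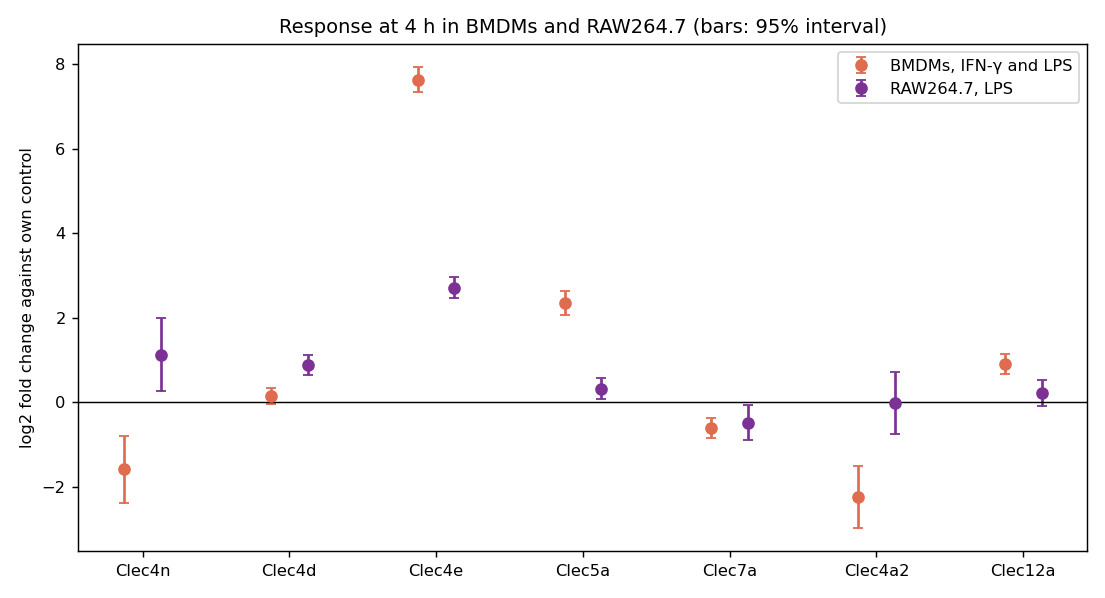
Log2-fold change of each receptor mRNA at 4 h against the control of the same cell kind (vertical axis; bars are 95% intervals) in BMDMs given IFN-γ and LPS and in RAW264.7 given LPS. Clec4e is at 7.64 in BMDMs and 2.72 in RAW264.7, and Clec4n and Clec4a2 lie at -1.58 and -2.24 in BMDMs.

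The range over the 9 conditions set the receptors apart. The highest group mean was 970.4 times the lowest for Clec4e, 56.0 times for Clec7a, 24.0 times for Clec4n (with 6 counts in all in the lowest group, IL-4), 8.71 times for Clec4a2, 8.07 times for Clec5a, 5.31 times for Clec12a and 5.25 times for Clec4d. In the order of Clec4e levels, the samples of neighbouring conditions overlapped between 12 and 24 h and among control, IL-13 and IL-4, and the others did not overlap. For Clec7a, IL-13 overlapped IL-4, and 24 h of IFN-LPS overlapped resting RAW264.7. Clec12a fell into 3 levels, the 4 IFN-LPS times, resting BMDMs and the rest, of which IL-4 lay above IL-13 and both RAW264.7 groups, which overlapped.

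The genes whose pattern was most like each receptor's were named by Pearson's r of log2 CPM over the 21 BMDM samples, among 7750 tested genes with a mean of at least 10 CPM. These samples share their treatments and controls, so r describes the shared pattern of the groups. Clec4e was like H2-Q4 (r = 0.994) and Sod2 (0.989). Clec5a was most like Nampt (0.967), Jdp2 (0.966) and Txnl1 (0.962), and Clec7a like Cd9 (0.976), Lgals3 (0.973) and Snx5 (0.964). Clec12a was most like Sdc3 (0.960), Pla2g7 (0.958) and Slc16a10 (0.957), and Clec4d like Pid1 (0.912), St3gal5 (0.901) and Limd2 (0.898). The low receptors had lower values, with Clec4n most like Gmfg (0.858), Slc11a1 (0.856) and Maf (0.839), and Clec4a2 like Tubb2a (0.886), Gngt2 (0.853) and Itgam (0.850).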

How the data were processed

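The authors trimmed reads with Trimmomatic 0.33, aligned them to mm10 with STAR 2.5.1 and deposited raw counts per gene for each sample, in whole numbers for 3 strand settings. The annotation release is not given in the sources used here. From the deposited counts, column 4 (sense) was used without Rn45s, which took 20.1% to 39.8% of the sense counts. R 4.3.3 with edgeR 4.0.16 (filterByExpr by group, TMM, robust quasi-likelihood fit with 1 mean per group over all 25 samples, 16 comparisons) gave log2-fold changes. Standard errors are the absolute change over the square root of F. The size cutoffs follow the study for treatments against control (1.5, 0.7 and, in RAW264.7, 2), and for the other comparisons were chosen here. The study itself used DESeq2. Tested on simulated counts with 200 changed genes, the fit recovered 199 for IFN-LPS at 4 h (10006 genes) and 191 for RAW264.7 (10024 genes). Both had 0 false calls. All changed genes had the same size of change, beyond both size cutoffs, with as many up as down and counts above a floor. The groups were otherwise simulated alike, with the same spread for all genes. The simulation therefore cannot show how calls near the cutoffs fare, or calls where the bulk of genes shifts. Recovery at counts as low as those of Clec4n and Clec4a2 was not tested separately, nor were the other comparisons. Levels between genes use merged exon length from GENCODE M21. Named genes are all 7 receptors and, per list, called genes among the 3 largest rises and falls. Other genes of the lists are named for their role, chosen after their values were seen. The receptors and lists were chosen with earlier results of these data known. Alternatives used DESeq2 1.42.0, a floor of 10 counts in every sample or of 1 count, counts of both strands, Rn45s kept, no TMM, only the groups compared, a replicate block and each sample left out. Replicates differed beyond sampling noise (chi-square per degree of freedom 1.30 to 4.53). Some genes and motifs are not reported here. BMDMs given LPS alone and protein sequences were not analysed here. Figures were drawn with matplotlib 3.10.9.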

Additional observations from a re-analysis of the deposited data

Results flagged for a closer look

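The response at 4 h differed between RAW264.7 and BMDMs by the test of the difference itself (edgeR, called at FDR of at most 0.01 and a size of at least 2) for 4 receptors, with log2 differences of 2.72 for Clec4n, -4.92 for Clec4e, -2.02 for Clec5a and 2.22 for Clec4a2. IFN-γ was given only to the BMDMs, so the cell kind and the stimulus cannot be told apart. Without each sample in turn the values ranged from 2.41 to 3.09 for Clec4n, -5.13 to -4.75 for Clec4e, -2.16 to -1.86 for Clec5a and 1.91 to 2.60 for Clec4a2.

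Among counts on the strand opposite to each receptor, Clec5a had 8 in the 3 samples of IFN-LPS at 1 h (2 to 4 per sample, 1.36% of its counts there), more in each than in any control sample. In RAW264.7, Clec5a had 2 to 4 such counts per control sample and 2 to 6 per LPS sample (0.509% and 0.568%). Over all genes, the 1 h libraries held 19891 to 26342 counts on the opposite strand. Their sense counts without Rn45s were 1654877 to 2101752, so the Clec5a share is to be read against this general level. These few counts were not tested.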

How the results depend on the processing

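Of the receptors' log2-fold changes with 1 sample left out, 637 kept their direction and side of the cutoffs, 22 lost the call and 13 changed sign. With DESeq2 these numbers were 108, 3 and 1, and without TMM 97, 7 and 7, with 1 call gained. Requiring at least 10 counts in every sample leaves 4 receptors (Clec4n, Clec4e and Clec4a2 drop out), and by this construction the called number was 1 at 1 h, 1 at 4 h, 0 from 1 to 4 h, 1 from 4 to 12 h, 0 from 12 to 24 h, 3 and 3 for IFN-LPS against IL-4 and IL-13, 0 for LPS in RAW264.7, 2 for resting and 1 for stimulated RAW264.7 against BMDMs and 0 for the difference in response. At 12 and 24 h against control the call of Clec4e is lost in the same way, as is that of Clec4n with IL-4 and with IL-13. Without TMM the called number was 0 from 1 to 4 h. For stimulated RAW264.7 against BMDMs it was 1 in place of 2 with DESeq2, Rn45s kept, no TMM, only the groups compared or the replicate block. The cause was not tested beyond the change in construction. With each sample left out, the called number ranged from 2 to 3 at 1 h, 3 to 4 at 4 h, 2 to 3 from 4 to 12 h, 0 to 1 from 12 to 24 h, 3 to 4 for resting and 1 to 2 for stimulated RAW264.7 against BMDMs and 2 to 4 for the difference in response, and was the same in all fits for the other 9 comparisons. Leaving 1 RAW264.7 sample in a group assumes that it varies like the other groups.

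Log2-fold changes that were not called changed sign as follows. Clec4d at 4 h was -0.043 with at least 10 counts and -0.43 without TMM, and without TMM Clec4n at 12 h was -0.060, Clec4a2 in IFN-LPS against IL-4 -0.21 and Clec4d in stimulated RAW264.7 against BMDMs 0.023. From 12 to 24 h, Clec4e was 0.023 with Rn45s kept, 0.12 without TMM and 0.034 with only the groups compared, and Clec5a and Clec12a were 0.039 and 0.083 without TMM. Clec4a2 with LPS in RAW264.7 was 0.013 with DESeq2, 0.031 with Rn45s kept and 0.025 with only the groups compared. With a sample left out, ranges that crossed 0 were -0.18 to 0.035 for Clec12a from 1 to 4 h, -0.011 to 0.24 from 4 to 12 h and -0.13 to 0.11 from 12 to 24 h, -0.073 to 0.084 for Clec4e and -0.22 to 0.017 for Clec5a from 12 to 24 h, -0.30 to 0.39 for Clec4e in IL-13 against IL-4, -0.49 to 0.38 for Clec4a2 in IFN-LPS against IL-4, -0.17 to 0.11 for Clec4a2 with LPS in RAW264.7 and -0.033 to 0.32 for the Clec7a difference in response.

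Same-numbered BMDM samples did not deviate together (mean correlation 0.0144 over 63 pairs of samples), so the numbers were not taken as pairs. The replicate block lost 2 calls, Clec4n in resting (-1.77) and Clec12a in stimulated RAW264.7 against BMDMs (-1.83), which left 1 call in the latter, and no other.

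Depth limits Clec4n and Clec4a2 most, whose samples hold as few as 1 and 3 counts.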

Other observations

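Over the 21 BMDM samples, which share treatments and controls, Clec7a log2 CPM ran against that of the other 6 receptors, with Pearson's r between -0.36 (Clec4a2) and -0.89 (Clec4d). Clec4e ran with Clec12a (r = 0.916), Clec5a (0.875) and Clec4d (0.818). The neighbours Clec4n and Clec4d had r = 0.824, while Clec4a2 in the same cluster had 0.517 with Clec4n and -0.14 with Clec4e.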
